A study of Homo sapiens with 6 samples.

Results

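Transcripts of 8 genes that define the thyroid follicular cell were followed in the cell line 8505C, which was established from a human anaplastic thyroid carcinoma. They were taken by name from the expression table, where each of the 8 names marks 1 of 58735 named genes. Of these genes 4 encode transcription factors (PAX8, NKX2-1, FOXE1 and GLIS3) and 4 serve hormone synthesis (DUOX1, TG, TSHR and SLC5A5). One group was 8505C cells labelled HHEX KD, with titles that name a short hairpin RNA against HHEX (HHEX shRNA, n = 3 libraries, KD1 to KD3). They were set against 8505C cells labelled wild-type, with titles that name a control hairpin (CTRL shRNA, n = 3 libraries, control1 to control3). All 6 libraries carry the treatment label untreated. The sources used here give neither the hairpin sequences nor whether the cells came from 1 clone, and every value describes a single cell line. The design text calls the libraries biological replicates, but no source says whether each had its own culture. In each group the titles give 2 of the 3 libraries the same first replicate number, so that a group may hold only 2 separate replicates, and the columns cannot be matched to these titles. The p-values therefore measure spread among these libraries alone, which may be technical.

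In the normal gland, PAX8, NKX2-1, FOXE1 and HHEX are expressed together from the first stage of thyroid development and act jointly on genes that only follicular cells use. The pituitary hormone TSH binds its receptor TSHR and raises cAMP, iodide enters through the sodium iodide symporter SLC5A5, and the oxidase DUOX1 supplies hydrogen peroxide at the apical membrane, where iodide is joined to tyrosines of thyroglobulin, the product of TG. Anaplastic carcinoma is the form of thyroid cancer known for loss of this programme.

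Sequencing depth was even, with 13333245 to 15144176 counts over named genes per library. Levels are CPM, counts scaled to the same library total, scaled with TMM factors, and a floor of 3 counts lay at 0.195 to 0.224 CPM. HHEX checks the labels. KD1, KD2 and KD3 had 14.8, 7.93 and 7.12 CPM, against 12.6, 12.8 and 12.0 CPM in control1, control2 and control3, so that KD1 was at 118% of the control mean and goes against its label. The difference in HHEX did not pass the test (log2 fold change −0.33, SE 0.28, edgeR adjusted p = 0.527). Without KD1 the log2 fold change was −0.73, without KD2 −0.18 and without KD3 −0.11. KD1 and KD2 resembled each other more than either resembled KD3, with r = 0.989 across 14280 genes, against 0.955 and 0.956 with KD3. KD3 was closer to each control library (r = 0.971 to 0.977) than to KD1 or KD2, and its part in the group differences was not tested beyond leaving it out. Directions given for the group labelled HHEX shRNA count KD1 in, although its HHEX was not low.

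The set split by function. All 4 transcription factors had counts in every library and passed the filter on low counts, which keeps genes with about 10 counts in at least 3 libraries. Of the 4 hormone synthesis genes, DUOX1 alone passed it. TG and SLC5A5 had at most 1 count in any library and are called undetected, a word used here for at most 3 counts in each of the 6 libraries. TSHR had at most 4 counts, all 4 of them in control1, and lies at a trace. In bulk RNA, fewer cells that express a gene and less RNA per cell cannot be told apart.

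Per exon length, NKX2-1 stood far above the others. Levels between genes are compared as TPM, the counts per kilobase of exon scaled to the same sum in each library. NKX2-1 averaged 37.7 ± 13.6 TPM in the libraries labelled HHEX shRNA and 46.7 ± 12.8 TPM in the control libraries (SD, n = 3 each). FOXE1 came next, at 4.37 ± 0.541 and 4.37 ± 0.552 TPM. PAX8 was at 1.70 ± 0.254 TPM in the libraries labelled HHEX shRNA and 2.12 ± 0.847 TPM in the control libraries, and GLIS3 at 1.93 ± 0.290 and 1.21 ± 0.106 TPM. DUOX1 was the lowest of those tested, at 0.433 ± 0.175 and 0.735 ± 0.387 TPM. In the libraries labelled HHEX shRNA the ranges of GLIS3 and PAX8 overlapped. In the control libraries those of PAX8 and GLIS3 did not overlap, and those of GLIS3 and DUOX1 did. NKX2-1 made up 71.0% to 89.4% of the summed TPM of the 8 genes in a library. It lay above 55.1% to 80.2% of the 14280 tested genes, whereas the other 4 tested members lay above 0.847% to 24.6% of them.

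**Figure D1:**
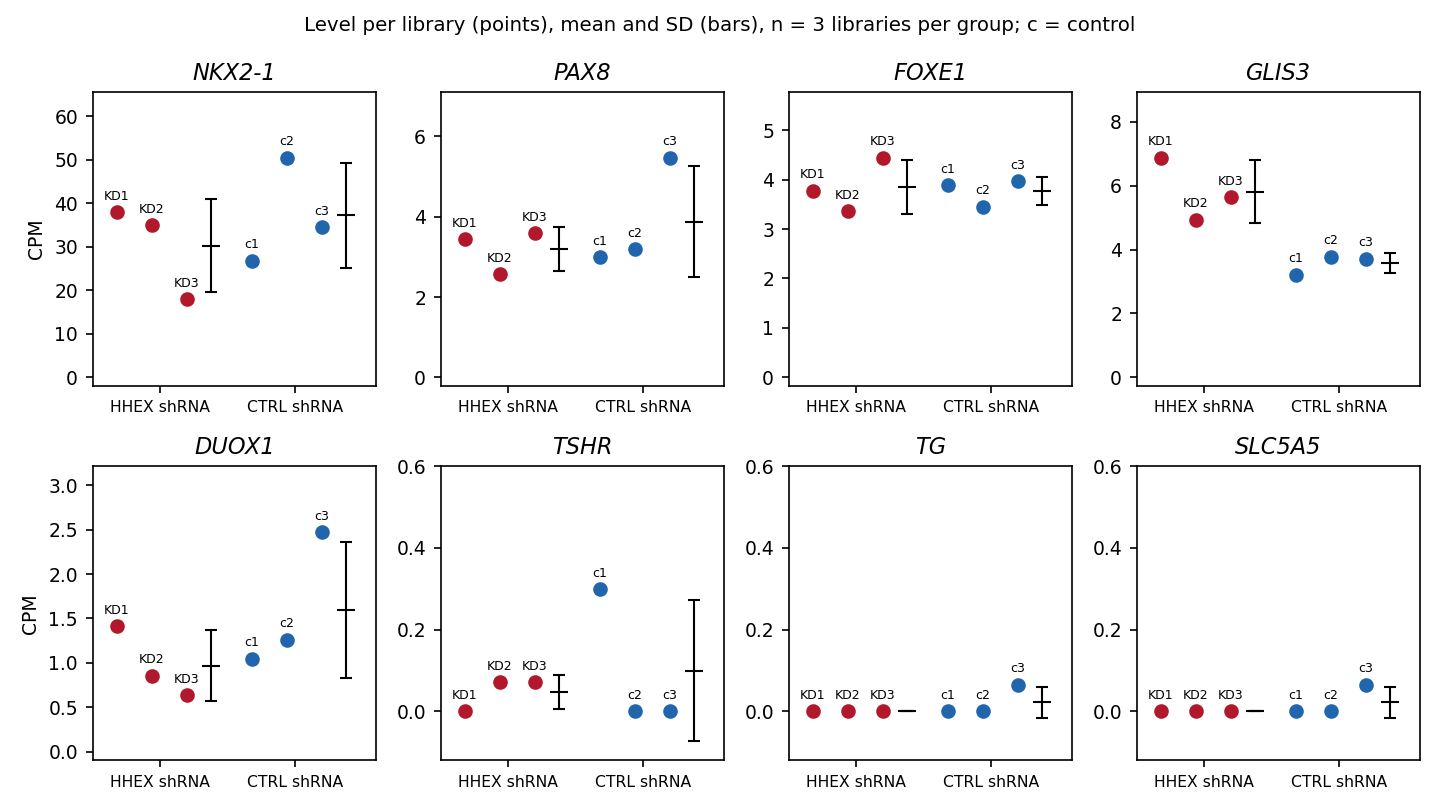
Level of each of the 8 genes in CPM (vertical axes, linear, each with its own range) in the 3 libraries labelled HHEX shRNA (red, left) and the 3 control libraries (blue, right); points are libraries, and the bar beside them is the mean with its SD, which can reach below 0 for genes near 0. GLIS3 has every red point above every blue point, from 4.93 to 6.87 against 3.21 to 3.78 CPM, and the other 7 genes overlap between the groups.

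NKX2-1 encodes a homeodomain factor of thyroid, lung and forebrain that binds the TG promoter. Its gene lies on the minus strand of chromosome 14, at 36516392 to 36521149, and has 2 promoters in the RefSeq table of GRCh38.p14, each covering 250 bases before to 50 bases after a transcript start. They are shown because NKX2-1 was the most abundant of the 8 transcripts, next to a promoter of GLIS3, the gene whose groups lay apart, and those of SLC5A5 and TSHR, which were near 0. Capitals mark letters of 6 motifs searched on both strands.
NKX2-1, downstream start, chr14:36519507-36519806, minus strand: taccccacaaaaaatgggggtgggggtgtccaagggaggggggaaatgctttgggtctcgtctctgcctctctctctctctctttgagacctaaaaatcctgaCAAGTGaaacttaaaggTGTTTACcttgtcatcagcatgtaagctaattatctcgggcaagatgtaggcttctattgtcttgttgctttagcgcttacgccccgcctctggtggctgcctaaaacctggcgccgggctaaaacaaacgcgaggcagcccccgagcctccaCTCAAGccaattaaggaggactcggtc
NKX2-1, upstream start, chr14:36520183-36520482, minus strand: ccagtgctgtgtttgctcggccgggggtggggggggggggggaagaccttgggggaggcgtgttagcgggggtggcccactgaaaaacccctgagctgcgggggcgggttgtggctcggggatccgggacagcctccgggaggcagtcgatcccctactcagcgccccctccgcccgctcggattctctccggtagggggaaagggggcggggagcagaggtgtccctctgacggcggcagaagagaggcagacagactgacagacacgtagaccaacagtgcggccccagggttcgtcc
GLIS3, upstream start, chr9:4298447-4298746, minus strand: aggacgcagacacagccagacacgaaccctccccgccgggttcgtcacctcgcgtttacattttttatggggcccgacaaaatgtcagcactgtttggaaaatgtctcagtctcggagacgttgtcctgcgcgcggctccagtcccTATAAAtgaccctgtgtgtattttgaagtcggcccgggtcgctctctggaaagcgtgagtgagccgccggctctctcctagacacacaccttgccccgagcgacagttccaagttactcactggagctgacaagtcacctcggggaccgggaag
SLC5A5, chr19:17871695-17871994, plus strand: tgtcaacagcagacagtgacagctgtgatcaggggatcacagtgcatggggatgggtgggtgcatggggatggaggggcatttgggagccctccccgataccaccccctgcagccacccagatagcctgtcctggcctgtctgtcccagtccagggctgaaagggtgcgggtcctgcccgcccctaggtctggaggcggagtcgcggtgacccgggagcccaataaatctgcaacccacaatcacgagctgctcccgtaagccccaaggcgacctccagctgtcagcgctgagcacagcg
TSHR, chr14:80955371-80955670, plus strand: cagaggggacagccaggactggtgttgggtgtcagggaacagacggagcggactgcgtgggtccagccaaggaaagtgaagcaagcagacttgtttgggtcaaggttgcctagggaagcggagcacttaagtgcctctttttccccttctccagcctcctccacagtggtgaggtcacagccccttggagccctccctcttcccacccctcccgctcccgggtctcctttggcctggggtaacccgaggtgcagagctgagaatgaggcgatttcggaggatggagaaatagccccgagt

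The motifs were CAAGTG and CTCAAG for NKX2-1, GTAAACA for forkhead factors such as FOXE1, GCGTGAC for paired-domain factors such as PAX8, TGGGGGGT for GLIS factors and TATAAA for the TATA box. CAAGTG and CTCAAG can overlap by their shared CAAG. Of the 9 promoters that the table holds for 7 of the 8 genes, the downstream NKX2-1 promoter held CAAGTG, beginning 147 bases before the start, GTAAACA on the other strand, beginning 130 bases before the start, and CTCAAG, beginning 23 bases after the first transcribed base. The upstream GLIS3 promoter held TATAAA, beginning 104 bases before the start. The other 7 promoters, those of SLC5A5 and TSHR included, held none of the 6 motifs in these windows. Among all 35116 promoters of the table, 11.5% held CAAGTG, 12.4% CTCAAG, 3.42% GTAAACA, 2.52% GCGTGAC, 1.47% TGGGGGGT and 11.5% TATAAA. A match is a description of letters and not a bound site.

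The promoters also differed in CpG content, given as the observed over the expected number of CpG from the C and G of the window. This ratio was 0.922 for DUOX1, 0.746 for FOXE1, 0.483 for PAX8, 0.615 and 0.542 for the upstream and downstream starts of NKX2-1, and 0.938 and 0.149 for those of GLIS3. It was 0.395 for SLC5A5 and 0.372 for TSHR. The median was 0.812 over 14885 promoters of tested genes and 0.339 over 8948 promoters of genes in the table that were not tested. DUOX1 and the upstream GLIS3 start lay above the median of tested genes, and the other 7 promoters, NKX2-1, PAX8 and FOXE1 among them, lay below it. These ratios are a description, with no test.

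NKX2-1 differed widely between libraries of the same group. It had 37.9, 34.9 and 18.0 CPM in KD1, KD2 and KD3, against 26.7, 50.5 and 34.5 CPM in control1, control2 and control3. The groups overlapped: control2 was highest, KD3 lowest, and the remaining 4 libraries lay between. KD3 stood at 48.3% of the control mean, with an exact 95% Poisson interval of 15.8 to 20.3 CPM, while KD1 and KD2 stood at 102% and 93.8%. Poisson intervals cover the counting error of a single library only, and the reads carry no molecular identifiers. Within groups the counts scattered far beyond counting error, with a chi-square of 221.4 where counting alone gives about 4. The fold change on the log2 scale was −0.30 (SE 0.32, 95% confidence interval −1.03 to 0.43, edgeR adjusted p = 0.613), an interval of 0.490-fold to 1.35-fold. Without control2 the fold change was 0.0060, and without KD3 −0.0084.

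The antisense gene NKX2-1-AS1 shares 402 exon bases with NKX2-1 on the opposite strand. It had 0.472, 0.786 and 0.987 CPM in KD1, KD2 and KD3, against 1.72, 1.26 and 1.56 CPM in control1, control2 and control3. Its counts were 7, 11 and 14 in KD1, KD2 and KD3, against 23, 19 and 24 in control1, control2 and control3. The groups did not overlap, as in 24.9% of tested genes. The difference did not pass (log2 fold change −1.01, SE 0.43, edgeR adjusted p = 0.230). Whether the library kit keeps strand is not stated, so reads of the pair cannot be assigned with certainty.

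PAX8, a paired-domain factor needed for the formation of follicular cells, is the marker pathologists use to trace anaplastic tumours to the thyroid. Its gene spans 113215997 to 113278950 on the minus strand of chromosome 2. It had 3.44, 2.57 and 3.59 CPM in KD1, KD2 and KD3, against 2.99, 3.19 and 5.47 CPM in control1, control2 and control3. Control3 was high and the other 5 libraries lay close together, so the groups overlapped. The log2 fold change was −0.28 (SE 0.33, 95% confidence interval −1.02 to 0.46, edgeR adjusted p = 0.646), and 0.05 without control3. PAX8-AS1 shares 685 exon bases with PAX8 on the opposite strand. It ran at 1.45 ± 0.587 CPM in the libraries labelled HHEX shRNA and 0.742 ± 0.372 CPM in the control libraries (log2 fold change 0.94, SE 0.51, edgeR adjusted p = 0.319). Single libraries had 1.01, 1.21 and 2.11 CPM in KD1, KD2 and KD3, against 0.523, 0.531 and 1.17 CPM in control1, control2 and control3, so its groups overlapped. The same limit on strand holds for this pair.

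FOXE1, a forkhead factor required for migration of the thyroid bud, was the steadiest of the 5 tested members. The gene has a single transcript, on the plus strand of chromosome 9 at 97853254 to 97856715. It had 3.77, 3.36 and 4.44 CPM in KD1, KD2 and KD3, against 3.89, 3.45 and 3.97 CPM in control1, control2 and control3. The highest library was only 1.32-fold above the lowest, and the within-group chi-square of 2.80 was below the 4 that counting alone gives. The log2 fold change was 0.03 (SE 0.25, edgeR adjusted p = 0.951), with a 95% confidence interval of −0.54 to 0.61 that still spans 0.686-fold to 1.53-fold. Its sign was negative with upper-quartile scaling or no scaling.

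GLIS3 was the gene of the set whose groups lay apart. It encodes a zinc finger factor, and loss of the gene causes neonatal diabetes with congenital hypothyroidism in humans. It spans 3824127 to 4348392 on the minus strand of chromosome 9. GLIS3 had 6.87, 4.93 and 5.64 CPM in KD1, KD2 and KD3, against 3.21, 3.78 and 3.71 CPM in control1, control2 and control3. Each library labelled HHEX shRNA exceeded each control library, and KD1, the library whose HHEX goes against its label, was highest. The mean was 5.81 ± 0.985 CPM in the libraries labelled HHEX shRNA and 3.57 ± 0.311 CPM in the control libraries (SD, n = 3 each). The log2 fold change was 0.70, with an SE of 0.25 and a 95% confidence interval of 0.14 to 1.26. After adjustment over all genes it missed the threshold (edgeR adjusted p = 0.177). A two-sided exact permutation test gave p = 0.1, the smallest that 3 against 3 libraries allow. Groups that do not overlap were common, at 24.9% of tested genes, 11.6% in the higher and 13.3% in the lower direction. Without KD3 GLIS3 passed (log2 fold change 0.75, edgeR adjusted p = 0.0451), in a fit where 31.6% of all genes did, and without KD1 the log2 fold change was 0.57 (edgeR adjusted p = 0.461).

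DUOX1, one of the dual oxidases of the apical membrane, lay just above the limit for testing. Its gene spans 45129933 to 45165576 on the plus strand of chromosome 15. It had 21, 12 and 9 counts in KD1, KD2 and KD3, against 14, 19 and 38 counts in control1, control2 and control3, which are 1.42, 0.857 and 0.634 CPM against 1.05, 1.26 and 2.47 CPM. Control3 was high here too, and KD1 lay above control1 and control2. The log2 fold change was −0.72 (SE 0.50, 95% confidence interval −1.84 to 0.41, edgeR adjusted p = 0.429), and −0.25 without control3. The within-group chi-square was 15.7, where counting alone gives about 4. The maturation factor DUOXA1, which the oxidase needs to leave the endoplasmic reticulum, shares its locus and had 0 counts in all 6 libraries, as did DUOXA2. Of their exon bases 80.9% and 71.4% are free of the exons of other genes, and no source used here says how reads in shared exons were counted. DUOX2, the paralog that is dominant in thyroid hormone synthesis, had 2 counts in KD2, 1 in control3 and 0 elsewhere.

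TG and SLC5A5 gave the same counts: 0 in KD1, KD2, KD3, control1 and control2, and 1 in control3. TG lies on the plus strand of chromosome 8 at 132866958 to 133134903, and SLC5A5 on that of chromosome 19 at 17871973 to 17895174. TSHR, on the plus strand of chromosome 14 at 80954989 to 81146302, had 0, 1 and 1 counts in KD1, KD2 and KD3, against 4, 0 and 0 counts in control1, control2 and control3. The value of control1 is 0.299 CPM, with an exact 95% Poisson interval of 0.0814 to 0.765 CPM. A difference between the groups was not detectable at this depth for any of these 3 genes, and no fold is given. Their exons are nearly free of other exons: 99.1% of the exon bases of TG, and 100% of those of SLC5A5 and TSHR, are covered by no exon of another annotated gene on either strand. CEP128 and AC007262.2 overlap TSHR on the opposite strand with 0 shared exon bases. CEP128 had 272 to 403 counts per library. AC007262.2 had 1, 1 and 0 counts in KD1, KD2 and KD3, against 4, 0 and 2 in control1, control2 and control3. Whether reads from these genes reached the TSHR counts was not tested.

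No member changed between the groups by the test over all genes. Of 5 members tested, 0 passed edgeR's quasi-likelihood test at a Benjamini-Hochberg adjusted p under 0.05, where 0.182% of the 14280 tested genes (26 genes) did, 0.105% higher and 0.077% lower. At an unadjusted p under 0.05 by edgeR there was 1, GLIS3, against 20.6% of all tested genes. DESeq2 called 0 of the 5, against 6.1% of all genes. Of the 5 log2 fold changes 2 were positive and 3 negative, with a median of −0.28, against −0.01 over all tested genes. These 5 passed the filter, and the remaining 3 members gave no fold change.

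**Figure D2:**
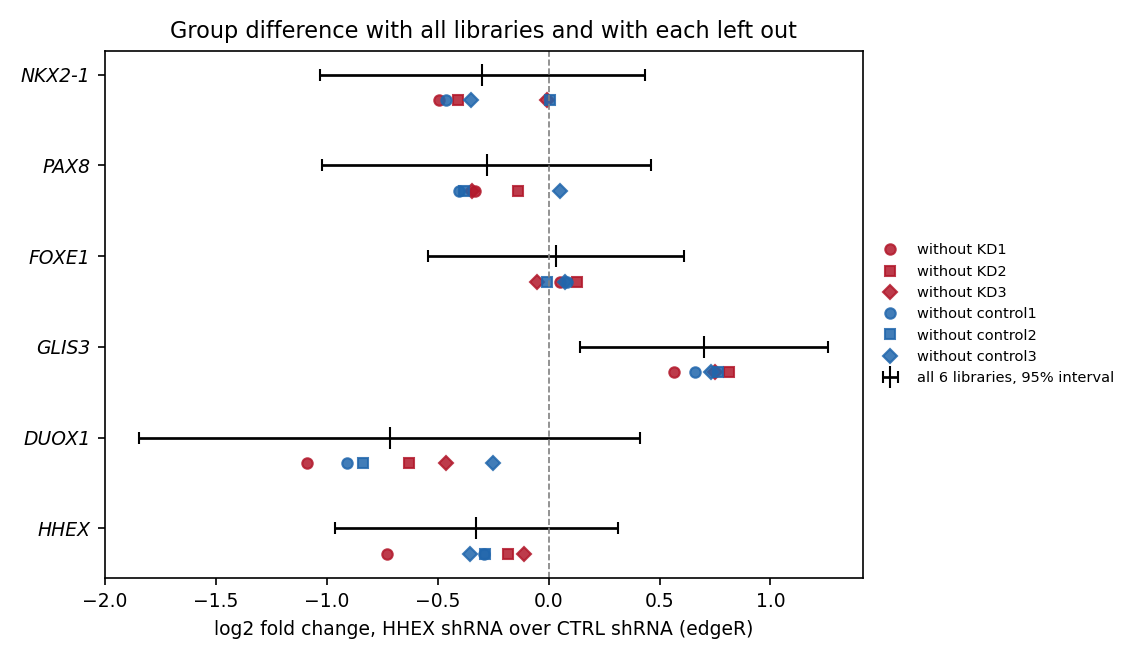
Log2 fold change of HHEX shRNA over CTRL shRNA (horizontal axis) for the 5 tested members and HHEX; black bars are the fit on all 6 libraries with its 95% confidence interval, and coloured symbols are fits that leave out 1 library. The interval of GLIS3 alone among the 5 members lies above 0 before adjustment, from 0.14 to 1.26, and NKX2-1, PAX8 and FOXE1 cross 0 when single libraries are left out.

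A wider list of 24 thyroid genes holds the 8 members as well. It joins 5 transcription factors with HHEX among them, 15 genes of hormone synthesis, and the 16 genes of a score widely used to grade thyroid differentiation, which overlap. Of the 24 genes, 8 were tested, 10 had at most 3 counts in every library and 4 of these had 0 counts throughout. Of the 15 hormone synthesis genes only DUOX1 was tested. SLC26A4, the apical iodide transporter pendrin, had 3, 3 and 8 counts in KD1, KD2 and KD3, against 10, 8 and 3 counts in control1, control2 and control3, and IYD, which recovers iodide from spent tyrosines, had at most 3. Besides the members and HHEX, the thyroid hormone receptor genes THRA and THRB were tested. THRA averaged 33.2 ± 6.70 CPM in the libraries labelled HHEX shRNA and 30.4 ± 2.72 CPM in the control libraries, and THRB 2.71 ± 0.717 and 1.92 ± 0.663 CPM (SD, n = 3 each). Of the 8 tested, 0 passed edgeR's test.

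**Figure D3:**
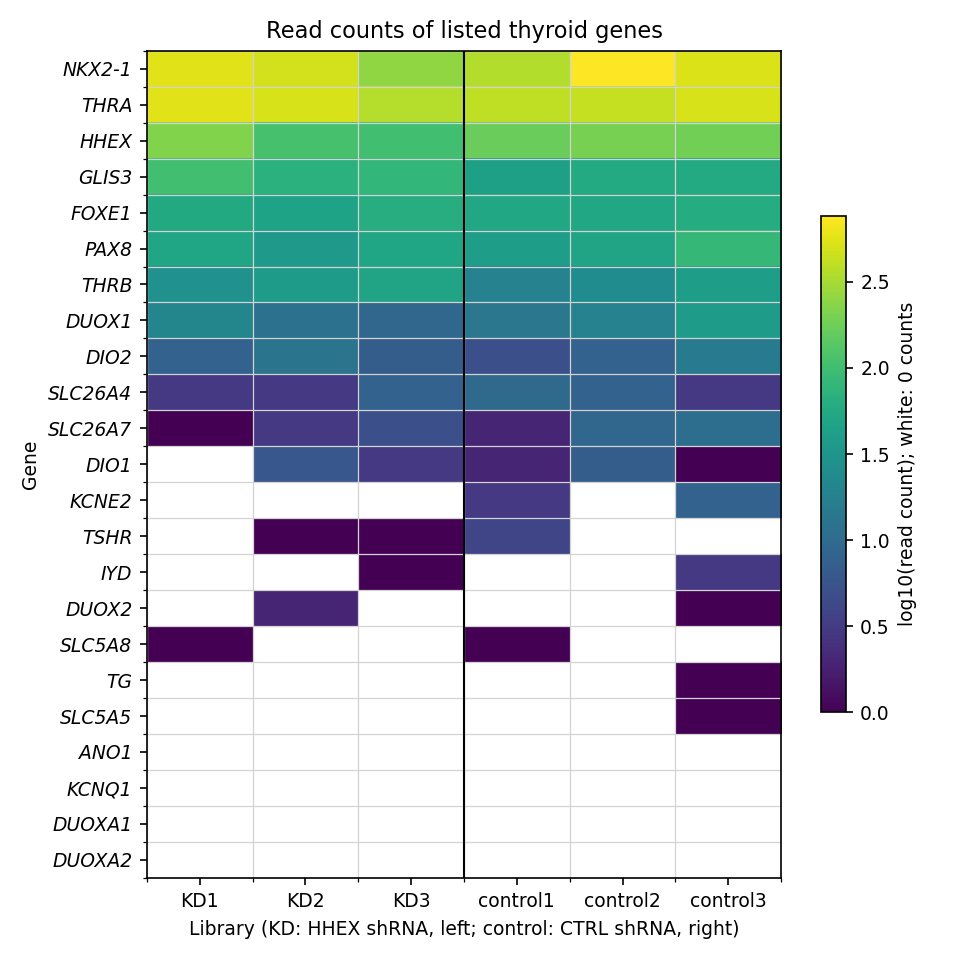
Read counts (colour, log10 scale; white is 0 counts) of listed thyroid genes (rows, by total count) in the 3 libraries labelled HHEX shRNA (left) and the 3 control libraries (right). NKX2-1, THRA and HHEX form the top rows, DUOX1 is the one hormone synthesis gene that was tested, and ANO1, KCNQ1, DUOXA1 and DUOXA2 are white throughout.

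Of 15 genes of thyroid hormone deiodination, transport and receptors 9 were tested and 0 passed by edgeR (median log2 fold change −0.05). Across all 17 lists 88 genes were tested, of which edgeR called 0, where it called 0.182% of all tested genes. At an unadjusted p under 0.05 by edgeR there were 20 of the 88, against 20.6% of all tested genes. DESeq2 called 7 of the 88, against 6.1% of all genes. SLC16A10, an exporter of thyroid hormone and aromatic amino acids, was at 7.70 ± 0.482 CPM in the libraries labelled HHEX shRNA and 5.12 ± 1.14 CPM in the control libraries (edgeR adjusted p = 0.210). SECISBP2, which is needed to make the selenium-containing deiodinases, was at 59.6 ± 5.74 CPM in the libraries labelled HHEX shRNA and 78.8 ± 6.82 CPM in the control libraries (edgeR adjusted p = 0.154). SLC7A5, which carries large neutral amino acids and thyroid hormone, divided the libraries labelled HHEX shRNA, with 129, 127 and 524 CPM in KD1, KD2 and KD3, against 456, 484 and 485 CPM in control1, control2 and control3 (edgeR adjusted p = 0.385). The deiodinase genes DIO1 and DIO2 had at most 7 and 15 counts in a library, and DIO3 had 0 throughout.

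Transcripts of the signalling machinery below the receptor were present although the receptor transcript was not above a trace. Whether its proteins or a cAMP response were present was not tested. Of 22 genes of TSH receptor and cAMP signalling 21 were tested, TSHR being the exception, and 0 passed by edgeR (median log2 fold change 0.06). PRKAR2B, a regulatory subunit of protein kinase A, was at 21.9 ± 1.08 CPM in the libraries labelled HHEX shRNA and 14.0 ± 1.63 CPM in the control libraries (log2 fold change 0.64, adjusted p = 0.110 by edgeR and 0.0214 by DESeq2). RAPGEF3, the cAMP-gated exchange factor EPAC, was at 5.07 ± 0.192 and 7.22 ± 0.534 CPM (log2 fold change −0.51, edgeR adjusted p = 0.213). PRKAR2A and ADCY3 had log2 fold changes of 0.43 and 0.42, with adjusted p = 0.193 and 0.223 by edgeR.

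Among 14 genes of the NADPH oxidases and their partners 6 were tested and 0 passed by edgeR (median log2 fold change −0.54). NOXA1, an activator subunit that partners NOX1, came closest of the genes in the 17 lists. It had 0.741, 1.86 and 1.90 CPM in KD1, KD2 and KD3, against 4.18, 9.30 and 8.53 CPM in control1, control2 and control3 (log2 fold change −2.29, SE 0.44, edgeR adjusted p = 0.0798). Its groups did not overlap, as in 24.9% of tested genes, and DESeq2 gave it an adjusted p = 8.47e-05. CYBA, the membrane subunit shared by several of these oxidases, was at 55.8 ± 2.47 CPM in the libraries labelled HHEX shRNA and 72.2 ± 14.4 CPM in the control libraries (edgeR adjusted p = 0.235).

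Of 10 genes that store, take up or cleave thyroglobulin 8 were tested and 0 passed by edgeR, with a median log2 fold change of −0.18. The cysteine protease gene CTSS was at 0.587 ± 0.549 CPM in the libraries labelled HHEX shRNA and 3.71 ± 0.859 CPM in the control libraries (log2 fold change −2.65, SE 0.60, adjusted p = 0.105 by edgeR and 0.00117 by DESeq2). Its counts were 2, 6 and 17 in KD1, KD2 and KD3, against 41, 51 and 72 in control1, control2 and control3. KD1 lay below the floor of 3 counts. CTSL, a lysosomal protease, was at 223 ± 2.74 and 159 ± 11.9 CPM (log2 fold change 0.49, adjusted p = 0.106 by edgeR and 0.0117 by DESeq2). CTSD and LGMN had log2 fold changes of −0.65 and −0.23 (edgeR adjusted p = 0.170 and 0.333).

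Relatives of the 4 factors were few. Of 11 paralogs 3 were tested and 0 passed, and 7 had 0 counts throughout, among them PAX2, NKX2-5 and FOXE3. FOXA1, a forkhead factor of endoderm, was at 6.77 ± 0.774 CPM in the libraries labelled HHEX shRNA and 4.47 ± 1.99 CPM in the control libraries. GLIS2 was at 18.6 ± 3.17 and 22.4 ± 2.86 CPM, and per exon length, at 16.4 ± 2.59 and 20.0 ± 1.47 TPM, it exceeded GLIS3 in both groups, and GLIS1 was at 0.766 ± 0.279 and 1.18 ± 0.644 CPM. All 17 coregulators of the factors were tested and 0 passed by edgeR. Of their log2 fold changes 14 were positive and 3 negative, with a median of 0.31, against −0.01 over all tested genes. TLE3, a co-repressor, was at 4.42 ± 1.34 CPM in the libraries labelled HHEX shRNA and 1.36 ± 0.377 CPM in the control libraries (log2 fold change 1.70, SE 0.37, adjusted p = 0.0986 by edgeR and 0.00369 by DESeq2). NFIA, PARP1 and TLE1 had log2 fold changes of 0.52, 0.52 and 0.37 (edgeR adjusted p = 0.165, 0.193 and 0.206). The groups of NFIA and TLE1 did not overlap, as in 24.9% of tested genes. PARP1 had 485, 488 and 302 CPM in KD1, KD2 and KD3, against 305, 281 and 304 CPM in control1, control2 and control3. Its KD3 value thus lay among those of the control libraries.

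Several of the 8 genes also mark other tissues, whose markers were read beside them. NKX2-1 also marks lung and C cells, and PAX8 the kidney. Of 10 lung markers 3 were tested, and these had counts in all 6 libraries. Per library, AGER had 41 to 102 counts, NAPSA 11 to 19 and ABCA3 5 to 16. SFTPC, SCGB1A1 and SCGB3A2 had 0 counts throughout. The summed lung markers ran from 4.85 to 7.36 CPM in the libraries labelled HHEX shRNA and from 6.13 to 8.85 CPM in the control libraries. Of 12 C cell markers 3 were tested. RET had 0 counts throughout, CALCA had at most 8 counts, and the sums ran from 3.37 to 5.29 and from 8.30 to 11.7 CPM. SCG2, a granin of secretory granules, was at 1.45 ± 0.911 CPM in the libraries labelled HHEX shRNA and 4.78 ± 0.623 CPM in the control libraries (log2 fold change −1.72, adjusted p = 0.110 by edgeR and 0.00848 by DESeq2). Of 10 kidney markers LHX1 and AQP1 were tested, while UMOD and SLC12A1 had 0 counts. LHX1, a homeobox gene of the early kidney, had 82.6, 84.6 and 23.5 CPM in KD1, KD2 and KD3, against 38.4, 44.5 and 34.3 CPM in control1, control2 and control3 (edgeR adjusted p = 0.385).

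Markers of cells foreign to the line were low or partial. Of 7 leukocyte markers CD14 alone was tested, with list sums of 3.03 to 4.25 CPM in the libraries labelled HHEX shRNA and 2.99 to 4.78 CPM in the control libraries. Of 5 parathyroid markers 0 were tested, with sums of 0.714 to 1.48 and 0.598 to 1.27 CPM. Of 8 fibroblast markers 3 were tested, with sums of 14.6 to 48.1 and 43.7 to 55.8 CPM that came mainly from COL3A1, while COL1A2 had at most 4 counts. Of 6 endothelial markers CDH5 and PECAM1 were tested, with sums of 5.14 to 15.0 and 15.0 to 16.4 CPM, while KDR and VWF had at most 1 and 7 counts. The list written to follow RNA quality had 5 of 6 genes tested. Its sums were 1424 to 1662 CPM in the libraries labelled HHEX shRNA and 1459 to 2142 CPM in the control libraries. Of its genes NEAT1 stood at 463 ± 38.0 and 899 ± 304 CPM (adjusted p = 0.120 by edgeR and 0.0107 by DESeq2). NORAD lay the other way, at 623 ± 69.5 and 514 ± 30.7 CPM (edgeR adjusted p = 0.309), so the sums join genes of unlike direction. The part of any of these markers in the levels of the 8 genes was not tested.

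**Figure D4:**
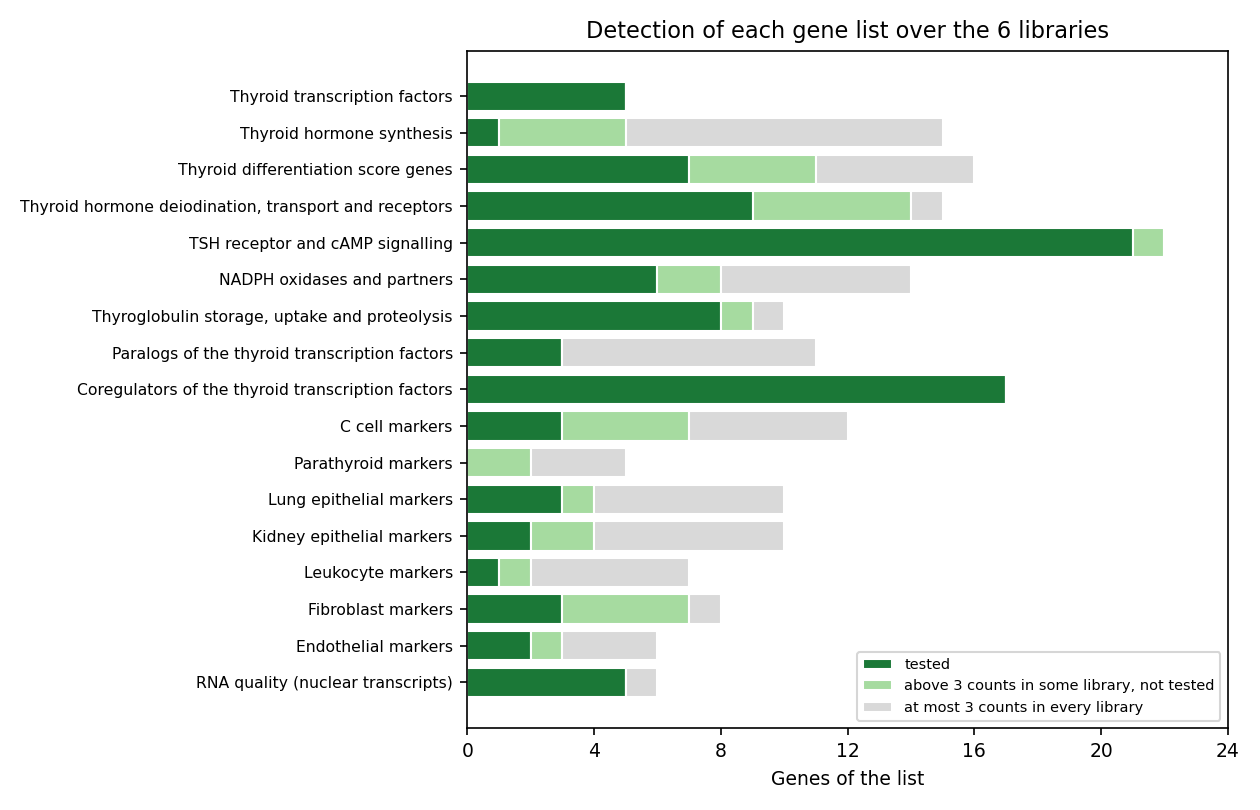
Number of genes (horizontal axis) in each of 17 lists (rows) that were tested (dark green), had above 3 counts in some library but were not tested (light green), or had at most 3 counts in all 6 libraries (grey). The transcription factor, cAMP signalling and coregulator lists are nearly all dark green, with 5 of 5, 21 of 22 and 17 of 17 genes tested, whereas 1 of 15 hormone synthesis genes is.

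The libraries that were high or low for a member were shared with other genes. Over the 6 libraries, LDOC1, CHST12 and TEDC1 had the log2 CPM pattern most like that of NKX2-1 (Pearson r = 0.994, 0.991 and 0.990), searched among 10674 genes with at least 5 CPM on average. For LDOC1 this meant 113, 102 and 71.9 CPM in KD1, KD2 and KD3, against 90.6, 136 and 103 CPM in the controls. CSF1, LPIN3 and METAP1D were nearest to PAX8 (r = 0.976, 0.975 and 0.951), SIM2, FGD4 and TENT2 to FOXE1 (r = 0.991, 0.987 and 0.969), RUNX2, CHD1L and NECAP1 to GLIS3 (r = 0.990, 0.990 and 0.985), and NADK, CIAO1 and ZNF767P to DUOX1 (r = 0.976, 0.971 and 0.970). Of these 15 genes 0 passed edgeR's test, with adjusted p-values of 0.285 to 0.999, where 0.182% of all tested genes passed. They were picked for patterns like those of members that did not pass either, so this count carries no further weight. With 6 points and 10674 genes searched, such values are a description only, and the points share their libraries and depth.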

How the data were processed

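RNA-seq was read from a table of all 6 libraries. Per the labels' protocols, Trizol was used for RNA isolation and TIANSeq kits for mRNA capture and library construction. No source used here gives strand, aligner or counter. The authors deposited whole-number raw counts for each gene. A further 6 columns with the authors' own normalized values were not used. Gene coordinates equalled those of GENCODE 29 (GRCh38) for 58683 of 58735 named genes, and its union exon lengths gave TPM. The 998 rows without a gene name, with 0.239% to 0.298% of the counts, were left out. Column names give the group and not the sample.

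Counts were filtered with filterByExpr, scaled by TMM and tested with edgeR 4.0.16 (glmQLFit, robust, and glmQLFTest) in R 4.3.3 over the 14280 genes kept, with Benjamini-Hochberg adjustment at 0.05. The log2 fold change is HHEX shRNA over CTRL shRNA, and log2 CPM used a prior count of 2. The fit was tested on simulated data. Alternatives were other scalings and filters, no robust estimation, DESeq2 1.42.0, limma-trend 3.58.1, a replicate block and leaving out each library. Named genes are the 8 members, HHEX, genes overlapping a member, up to 4 tested genes with the smallest p in each of 17 lists, and the 3 genes most like each tested member. Further genes, most of them at or near 0 counts, were named after their values were seen. Some genes that the rule names are not reported here. The members and lists were chosen with earlier results of these data known.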

Additional observations from a re-analysis of the deposited data

How the results depend on the processing

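The 26 changed genes became 854 with DESeq2, 1359 without a filter on low counts and 0 to 4675 when single libraries were left out. The count of changed members, 0 of 5, was 0 under every alternative except leaving out single libraries, where it ranged from 0 to 1, as did that of the 24 listed thyroid genes; the 1 gene was GLIS3, without KD3. Leave-one-out log2 fold changes ranged from −0.41 to 0.051 for PAX8, −0.49 to 0.0060 for NKX2-1, −0.054 to 0.13 for FOXE1, 0.57 to 0.81 for GLIS3, −1.09 to −0.25 for DUOX1 and −0.73 to −0.11 for HHEX. FOXE1 turned to −0.054 without KD3, −0.027 with upper-quartile scaling, −0.012 with no scaling and −0.0083 without control2. With the longest transcript as the length, 5 of 16 levels per length moved by over 1 SD. FOXE1 was among them, at 3.20 TPM in the libraries labelled HHEX shRNA and 3.19 TPM in the control libraries. Its length is 3462 bases by both measures, and only the sum used to scale each library changed. The other moved levels were those of PAX8 in the libraries labelled HHEX shRNA and of GLIS3 in both groups. For these genes the length changed as well as the sum, from 7400 to 4152 bases for PAX8 and from 11826 to 6667 bases for GLIS3. The titles and the columns carry replicate numbers that do not match. Same-numbered columns deviated with correlations of −0.0469, −0.0693 and 0.123, against −0.141 to 0.176 for columns with unlike numbers. With 3 libraries per group these values cannot show whether the numbers pair the libraries. With a replicate block by column number 30 genes passed, 0 of them members. At this depth TG, SLC5A5 and TSHR, with 0 to 4 counts, allow no comparison.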
